A study of Mus musculus with 1 sample.

Results

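Collagen genes were described across the cell classes of the fetal mouse testis. The members were all genes whose symbol in the control library has the form Col, a number, a and a number. There were 44 such genes among 22631 measured features. The label's protocol names 12 controls for the cell suspensions without saying how they were combined, and the control library was 1 sample without a replicate. The label gives embryonic day 14.5 and a wild-type genotype. The design text also names the day before, and by the study's methods control fetuses carried the Nr5a1 L2/L2 alleles but no Cre. Messenger RNA was captured at its 3′ end and counted as unique molecular identifiers (UMIs), so that 1 captured molecule counts once whatever the length of the gene. The library of mutant fetuses, which lack Nr5a1 in Sertoli cells, was not analysed here.

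Collagens are secreted or membrane-bound proteins made of 3 chains wound into a triple helix, and each chain has its own gene. Fibrillar collagens such as types I, III and V form the fibres of connective tissue. Type IV collagen forms the sheet-like network of basement membranes, type VI forms beaded filaments between cells and fibres, and types XV and XVIII sit at basement membranes and carry sugar side chains. FACIT collagens, such as types IX, XII and XIV, attach to the surface of fibrils. In the fetal testis, a basement membrane surrounds each cord of Sertoli and germ cells, a sleeve of peritubular myoid cells lies outside it, and the interstitium between the cords holds fibroblast-like cells, Leydig cells and vessels.

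The 44 members comprised 11 fibrillar collagens, 9 network collagens, 9 FACIT or FACIT-like collagens, 8 beaded filament and related collagens, 4 transmembrane collagens, 2 multiplexins (types XV and XVIII) and 1 anchoring fibril collagen. After removal of barcodes with few genes, of doublets and of outliers, 3822 cells with a median of 12117 UMIs were kept. The members held 198143 of their 54928991 UMIs, or 0.361%. Cells were clustered without the collagens among the variable genes, so collagen levels had no part in the clustering itself. Collagens were not left out of the earlier step that removed doublets. Clusters were named from marker genes that include no collagen. This gave 854 Sertoli-like, 252 germ-like, 527 peritubular myoid-like, 1356 interstitial-like, 313 Leydig-like, 152 coelomic epithelium-like and 99 perivascular-like cells, in addition to small endothelial-like, immune-like, rete testis-like and erythroid-like classes and 151 cells in unnamed clusters. A level is the number of UMIs of a gene for every 1000000 UMIs of a class (CPM).

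Because all classes came from 1 library, no test between them was made, and intervals are exact 95% intervals that cover counting error only. For the 22 collagens that reached 50 CPM in a class of at least 100 cells, the interval of each of the 45 levels of 100 CPM or more lay within 17.8% of the level, and that of each of the 44 levels between 20 and 100 CPM within 41.9%. For a comparison of classes, a gene was called higher or lower when its levels differed at least 2-fold and their intervals did not overlap, among genes with at least 5 CPM over both classes.

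All 44 members were found in the GENCODE annotation of GRCm38, the same assembly as the mm10 build of the files. Several members lie next to each other with no other protein-coding gene between them. Col4a1 (chr8:11198423-11312826, minus strand) and Col4a2 (chr8:11312805-11449287, plus strand) are head to head with 22 bases of overlap at their starts. Col4a4 (chr1:82448423-82586849, minus strand) and Col4a3 (chr1:82586921-82722059, plus strand) are head to head with 71 bases between them, and Col4a6 and Col4a5 on chromosome X with 1308 bases. Col3a1 (chr1:45311538-45349706, plus strand) and Col5a2 (chr1:45374321-45503282, minus strand) are tail to tail with 24614 bases between them. The levels of these neighbours are compared further on. No member overlapped another protein-coding gene on its own strand.

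Promoter sequence (RefSeq, GRCm38.p6) was at hand for 35 of the 44 members. The 250 bases before the start are shown for 3 fibrillar genes because their levels differed between the classes in different ways: Col3a1 (chr1:45311288-45311537, plus strand) and Col5a1 (chr2:27886175-27886424, plus strand) were high in the stromal classes and low in Sertoli-like cells, and Col27a1 (chr4:63215162-63215411, plus strand) was highest in Sertoli-like cells. The start is that of the RefSeq entry, which for Col27a1 lies inside the GENCODE gene (chr4:63214004-63334991). The 71 bases between Col4a4 and Col4a3 (chr1:82586850-82586920, read from Col4a4's strand) are shown because both genes start at its ends but differed in level. These windows were chosen with the levels known. No annotated exon lies in these windows. Capitals mark matches on either strand to the CCAAT box, to the GGGCGG box bound by Sp1, to the TATAAA form of the TATA box, and to the AACAAT motif of Sox factors.
Col3a1: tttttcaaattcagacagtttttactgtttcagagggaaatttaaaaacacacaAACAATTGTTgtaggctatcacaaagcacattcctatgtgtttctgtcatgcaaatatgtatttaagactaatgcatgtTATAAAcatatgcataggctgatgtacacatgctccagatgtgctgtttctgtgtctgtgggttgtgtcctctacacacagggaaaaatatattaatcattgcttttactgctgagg
Col5a1: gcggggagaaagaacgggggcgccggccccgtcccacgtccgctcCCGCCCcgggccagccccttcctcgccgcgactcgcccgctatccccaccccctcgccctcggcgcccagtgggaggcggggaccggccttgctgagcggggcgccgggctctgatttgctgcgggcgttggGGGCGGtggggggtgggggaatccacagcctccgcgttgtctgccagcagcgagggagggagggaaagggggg
Col27a1: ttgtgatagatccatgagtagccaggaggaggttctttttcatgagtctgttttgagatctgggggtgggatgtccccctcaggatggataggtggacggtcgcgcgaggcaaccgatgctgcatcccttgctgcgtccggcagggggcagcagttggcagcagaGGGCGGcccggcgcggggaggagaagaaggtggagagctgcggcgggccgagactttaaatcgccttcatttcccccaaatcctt
Col4a4 to Col4a3: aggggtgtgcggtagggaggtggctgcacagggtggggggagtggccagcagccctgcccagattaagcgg
The Col3a1 window held 1 TATAAA and 2 overlapping AACAAT matches on opposite strands, and its GC content was 35.2%. The Col5a1 window held 2 GGGCGG matches and no TATAAA, with 76.4% of its bases G or C. The Col27a1 window held 1 GGGCGG match, with 59.6% of its bases G or C. The 71 bases held none of these motifs at a GC content of 69.0%. Among all 32851 promoter windows of 250 bases, 33.8% held CCAAT, 32.7% GGGCGG, 12.4% TATAAA and 9.42% AACAAT. Among the 38 windows of the members, 13 held CCAAT, 22 GGGCGG, 5 TATAAA and 1 AACAAT. These are matches of letters and were not tested as binding sites.

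Total collagen RNA differed widely between the classes. It was 6784 CPM in perivascular-like, 6496 CPM in interstitial-like and 6243 CPM in peritubular myoid-like cells. Coelomic epithelium-like cells had 3650 CPM, Leydig-like cells 1995 CPM, Sertoli-like cells 1871 CPM and germ-like cells 159 CPM. The exact intervals of perivascular-like and interstitial-like cells (6636 to 6934 and 6453 to 6539 CPM) did not overlap, nor did those of any other neighbours in this order. The 89 cells of unnamed cluster 10, which are not in this order, held 9994 CPM.

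The make-up of the collagen RNA differed as well as its amount. Fibrillar collagens made up 76.3% of it in peritubular myoid-like cells, 72.2% in coelomic epithelium-like cells, 55.3% in interstitial-like cells, 49.9% in perivascular-like cells and 47.3% in Leydig-like cells, but 8.33% in Sertoli-like cells. In Sertoli-like cells, FACIT collagens made up 50.7% and the multiplexins 28.3%. Network collagens made up 37.1% in perivascular-like cells and 25.9% in interstitial-like cells, against 5.42% in peritubular myoid-like and 5.88% in coelomic epithelium-like cells. Beaded filament collagens had their largest share, 24.3%, in Leydig-like cells.

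**Figure D1:**
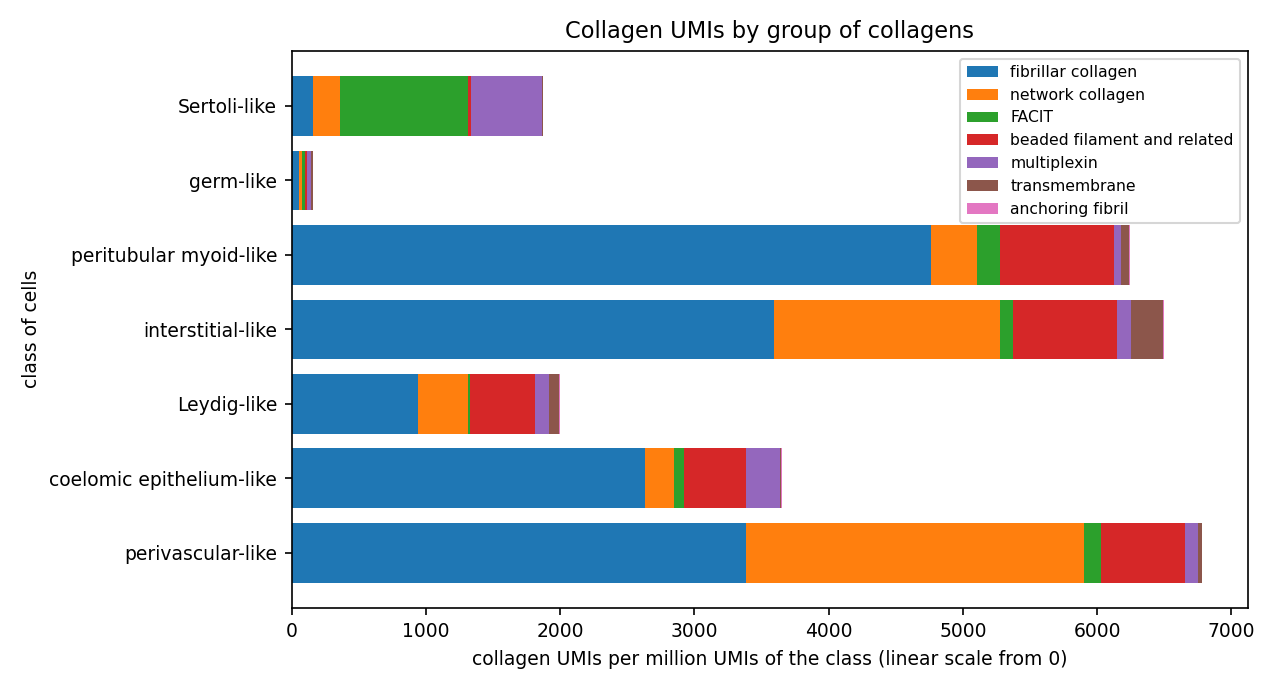
Collagen level of each class in CPM (horizontal axis, linear from 0), split by group of collagens, for the 7 classes of 1 library. Fibrillar collagens (blue) fill most of the bar of peritubular myoid-like cells (4765 of 6243 CPM), whereas FACIT collagens (green) lead in Sertoli-like cells (950 of 1871 CPM).

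Of the 22 collagens at 50 CPM or more, 8 had their highest level among the classes of at least 100 cells in peritubular myoid-like cells, 8 in interstitial-like cells, 5 in Sertoli-like cells and 1 in Leydig-like cells. This tally includes Col1a2, Col6a1, Col6a2, Col16a1 and Col26a1, for which the first classes could not be told apart. The tally also depends on the limit of 100 cells. In the 99 perivascular-like cells, Col4a1, Col4a2 and Col6a3 were higher than in any class counted, at 1754, 731 and 256 CPM. The unnamed clusters were left out of the tally too. In the 89 cells of unnamed cluster 10, Col3a1, Col1a1, Col1a2 and Col5a1 were higher than in any class counted, at 3052, 2108, 2025 and 334 CPM. Col6a1, the other of its 5 leading collagens, was not, at 368 CPM.

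**Figure D2:**
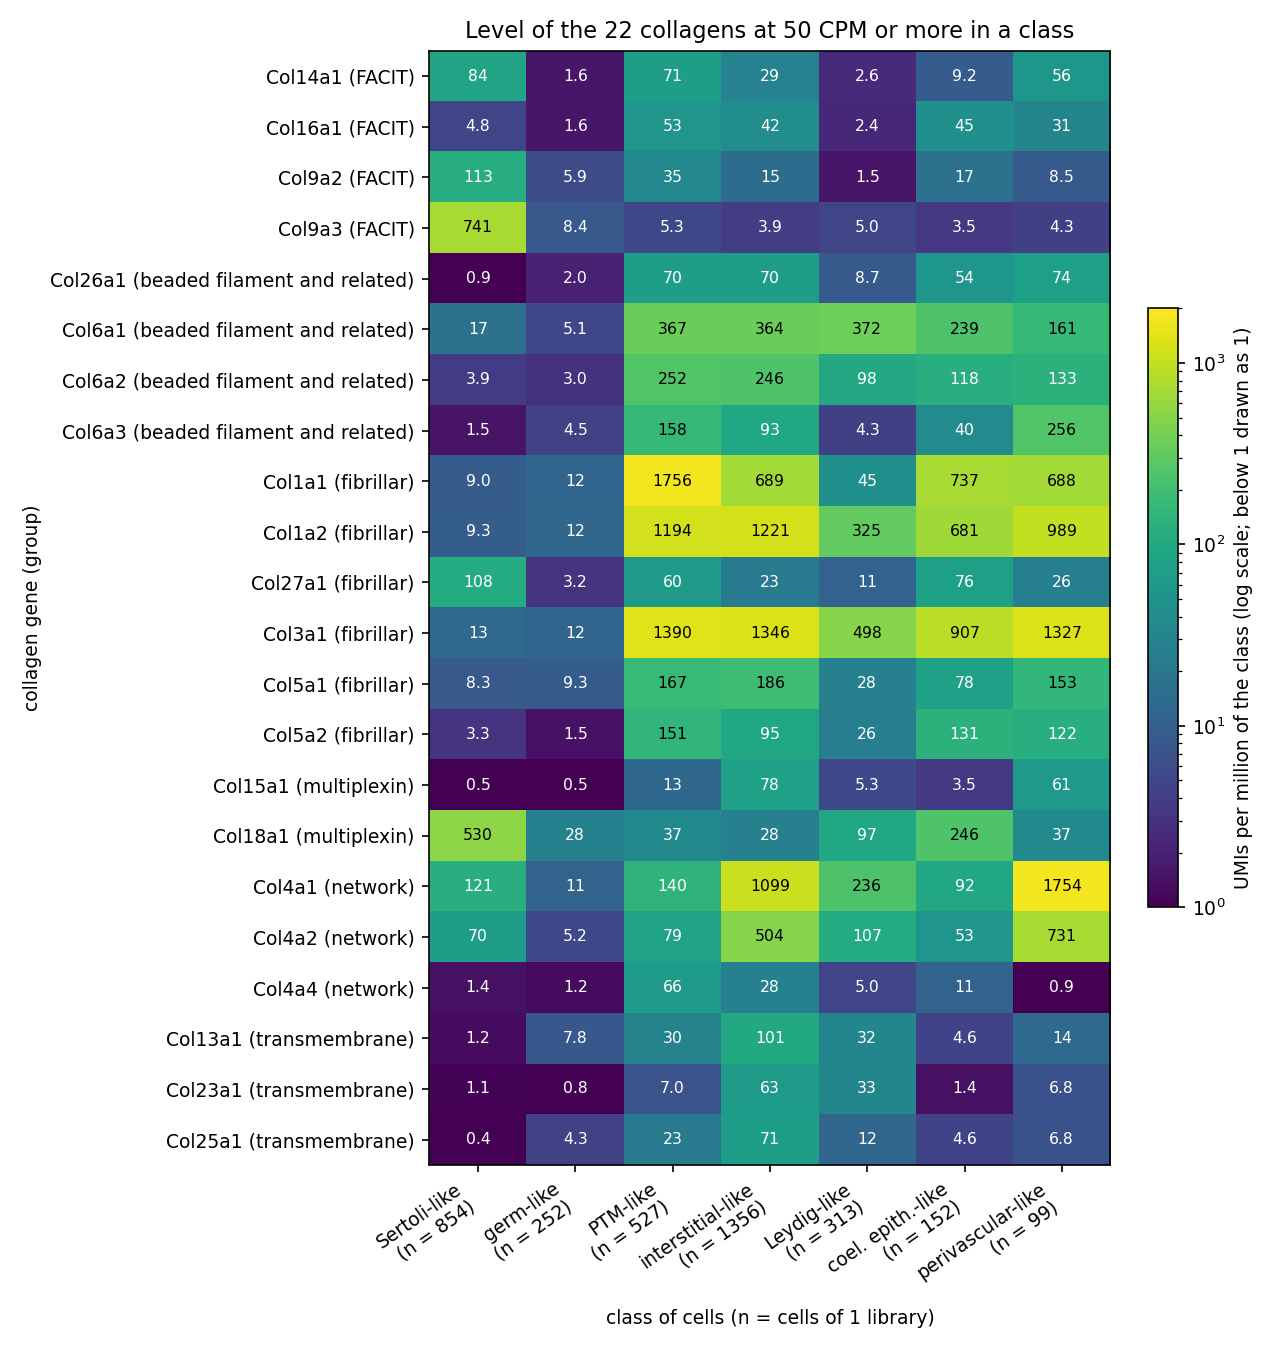
Levels of 22 collagen genes (rows, by group) in 7 classes of cells (columns), in CPM, printed in each field and coloured on a log scale. Col9a3 and Col18a1 stand out in Sertoli-like cells (741 and 530 CPM), and Col4a1 in interstitial-like and perivascular-like cells (1099 and 1754 CPM).

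Among fibrillar collagens, Col1a1 and Col1a2 encode the 2 kinds of chain of type I collagen, the main fibre of connective tissue. Col1a1 was at 1756 CPM in peritubular myoid-like, 737 in coelomic epithelium-like, 689 in interstitial-like, 688 in perivascular-like, 45.3 in Leydig-like, 12.1 in germ-like and 9.04 in Sertoli-like cells. Peritubular myoid-like cells thus stood above the other classes listed, but below the 89 cells of unnamed cluster 10, at 2108 CPM. Interstitial-like and perivascular-like cells could not be told apart in Col1a1, with a ratio of 0.998 (0.928 to 1.07). Col1a2 was at 1221 CPM in interstitial-like, 1194 in peritubular myoid-like, 989 in perivascular-like, 681 in coelomic epithelium-like, 325 in Leydig-like, 12.3 in germ-like and 9.27 in Sertoli-like cells. Peritubular myoid-like and interstitial-like cells could not be told apart, with a ratio of the former to the latter of 0.978 (0.953 to 1.004).

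Col3a1, whose chains form type III collagen on their own, was the most abundant member in the kept cells, with 38215 UMIs. Its level was 1390 CPM in peritubular myoid-like, 1346 in interstitial-like, 1327 in perivascular-like, 907 in coelomic epithelium-like, 498 in Leydig-like, 13.2 in Sertoli-like cells and 11.7 in germ-like cells. The peritubular myoid-like, interstitial-like and perivascular-like levels lay within 5% of each other, and the ratio of the first to the second was 1.03 (1.01 to 1.06).

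Type V collagen is built into type I fibres and helps to set their width. Col5a1 was at 186 CPM in interstitial-like, 167 in peritubular myoid-like, 153 in perivascular-like, 78.3 in coelomic epithelium-like, 27.7 in Leydig-like, 9.26 in germ-like and 8.26 in Sertoli-like cells. Col5a2 was at 151 CPM in peritubular myoid-like, 131 in coelomic epithelium-like, 122 in perivascular-like, 94.6 in interstitial-like, 25.8 in Leydig-like, 3.27 in Sertoli-like cells and 1.47 in germ-like cells. So the chains of type V did not follow the same order, and coelomic epithelium-like cells were the 1 class of the 7 with fewer UMIs of Col5a1 than of Col5a2, at 0.598 per UMI.

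Col27a1, a fibrillar collagen best known from cartilage, had another order of levels. It was at 108 CPM in Sertoli-like, 75.9 in coelomic epithelium-like, 60.1 in peritubular myoid-like, 26.4 in perivascular-like, 23.4 in interstitial-like, 10.8 in Leydig-like and 3.16 in germ-like cells. Col11a1, a chain of the type XI collagen of cartilage fibrils, was at 42.7 CPM in peritubular myoid-like cells, its highest class of at least 100 cells, and at 76.5 CPM in the 99 perivascular-like cells. It was at 1.64 CPM in Sertoli-like cells. Col2a1, the type II collagen of cartilage, stayed under 5 CPM in every class of at least 100 cells, with 51 UMIs in all kept cells and 2.73 CPM in Sertoli-like cells.

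Among network collagens, Col4a1 and Col4a2 encode the chains of the common type IV collagen of basement membranes. Col4a1 was at 1754 CPM in perivascular-like, 1099 in interstitial-like, 236 in Leydig-like, 140 in peritubular myoid-like, 121 in Sertoli-like, 92.1 in coelomic epithelium-like and 11.3 in germ-like cells. Col4a2 followed the same order, at 731, 504, 107, 78.8, 70.3, 52.9 and 5.20 CPM. Both were thus several times lower in the 2 classes that border the cord basement membrane, Sertoli-like and peritubular myoid-like cells, than in interstitial-like cells. After thinning every cell to 5000 UMIs, 91.8% of interstitial-like, 98.0% of perivascular-like, 43.2% of peritubular myoid-like and 40.8% of Sertoli-like cells still had a Col4a1 UMI, and 4.44% of germ-like cells. As read, the shares were 95.9%, 100%, 66.8%, 71.2% and 15.1%. The low level in peritubular myoid-like cells depended on the class: with each cell classed by its own markers it was 395 CPM for Col4a1 and 187 CPM for Col4a2.

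The other type IV chains, which build the specialised networks of the glomerulus and of some epithelia, were lower and differed in order. Col4a4 was at 65.5 CPM in peritubular myoid-like, 28.0 in interstitial-like, 11.3 in coelomic epithelium-like, 4.96 in Leydig-like, 1.40 in Sertoli-like cells and 1.24 in germ-like cells, and perivascular-like cells held 1 UMI. Its neighbour Col4a3 reached 7.82 CPM at most, also in peritubular myoid-like cells. Among classes of at least 100 cells, Col4a5 was highest in coelomic epithelium-like cells, at 40.2 CPM (103 CPM in the 29 rete testis-like cells), and Col4a6 in interstitial-like cells, at 8.89 CPM. Col8a2, a chain of the short-chain type VIII collagen, was highest in peritubular myoid-like cells, at 13.2 CPM.

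Type VI collagen is assembled from chains of Col6a1, Col6a2 and Col6a3. Col6a1 was at 372 CPM in Leydig-like, 367 in peritubular myoid-like, 364 in interstitial-like, 239 in coelomic epithelium-like, 161 in perivascular-like, 17.1 in Sertoli-like cells and 5.08 in germ-like cells. Leydig-like and interstitial-like cells could not be told apart in Col6a1 (ratio 1.02, 0.972 to 1.08). Col6a2 was at 252 CPM in peritubular myoid-like, 246 in interstitial-like, 133 in perivascular-like, 118 in coelomic epithelium-like, 98.3 in Leydig-like, 3.90 in Sertoli-like cells and 3.05 in germ-like cells. Col6a3 was at 256 CPM in perivascular-like, 158 in peritubular myoid-like, 93.0 in interstitial-like, 39.5 in coelomic epithelium-like, 4.52 in germ-like, 4.27 in Leydig-like and 1.481 in Sertoli-like cells. Leydig-like cells therefore had a Col6a1 level like that of the stromal classes with the most, but few Col6a3 UMIs. After thinning, 80.3% of Leydig-like cells had a Col6a1 UMI and 1.61% a Col6a3 UMI, against 97.4% and 4.15% as read.

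Col26a1 encodes a short collagen that was first described in developing testis and ovary. It was at 74.0 CPM in perivascular-like, 69.7 in peritubular myoid-like, 69.5 in interstitial-like, 54.0 in coelomic epithelium-like, 8.72 in Leydig-like, 2.03 in germ-like and 0.935 in Sertoli-like cells. The first 3 could not be told apart.

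Among FACIT collagens, the chains of type IX collagen, a partner of type II fibrils in cartilage, were concentrated in Sertoli-like cells. Col9a3 was at 741 CPM in Sertoli-like cells and at most 8.36 CPM, in germ-like cells, in the other 6 classes. Outside these classes it was at 92.8 CPM in the 29 rete testis-like cells, which also held Sertoli markers. As read, 97.9% of Sertoli-like cells had at least 1 Col9a3 UMI, and 93.3% after thinning, when 3.63% of germ-like and 1.38% of coelomic epithelium-like cells had one. The 9510 Col9a3 UMIs were spread over the class, with 2.18% of them in its 5 highest cells. Col9a2 was at 113 CPM in Sertoli-like, 35.3 in peritubular myoid-like, 16.9 in coelomic epithelium-like, 14.7 in interstitial-like, 8.501 in perivascular-like, 5.87 in germ-like and 1.54 in Leydig-like cells. Among classes of at least 100 cells Col9a1 was highest in Sertoli-like cells too, at 5.92 CPM, and it was at 9.77 CPM in rete testis-like cells.

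Col14a1, which binds the surface of type I fibrils, was at 83.5 CPM in Sertoli-like, 70.5 in peritubular myoid-like, 56.1 in perivascular-like, 28.9 in interstitial-like, 9.18 in coelomic epithelium-like, 2.56 in Leydig-like and 1.58 in germ-like cells. Col16a1 was at 53.2 CPM in peritubular myoid-like, 44.8 in coelomic epithelium-like, 42.1 in interstitial-like, 31.5 in perivascular-like, 4.83 in Sertoli-like, 2.39 in Leydig-like and 1.58 in germ-like cells. Unlike Col9a3, Col14a1 was within 2-fold in Sertoli-like and peritubular myoid-like cells. Col16a1 was lower in Sertoli-like cells than in peritubular myoid-like, interstitial-like and perivascular-like cells. Col12a1 reached 7.96 CPM in peritubular myoid-like cells and 26.4 CPM in perivascular-like cells. Col22a1, otherwise known from tissue junctions such as that of muscle and tendon, was at 7.23 CPM in germ-like cells, its highest class of at least 100 cells, and at 21.99 CPM in rete testis-like cells.

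Of the multiplexins, Col18a1, whose C-terminal fragment is endostatin, was at 530 CPM in Sertoli-like, 246 in coelomic epithelium-like, 96.6 in Leydig-like, 37.4 in both perivascular-like and peritubular myoid-like, 28.2 in germ-like and 27.7 in interstitial-like cells. Among classes of at least 100 cells, Sertoli-like and coelomic epithelium-like cells were thus the highest. After thinning, 90.0% of Sertoli-like, 66.9% of coelomic epithelium-like and 12.1% of germ-like cells had a UMI, against 98.7%, 91.4% and 56.3% as read. The perivascular-like level moved between 17.4 and 66.5 CPM with other limits for outlier cells. Col15a1, the other multiplexin, was at 77.8 CPM in interstitial-like, 61.2 in perivascular-like, 12.7 in peritubular myoid-like, 5.30 in Leydig-like, 3.53 in coelomic epithelium-like, 0.545 in Sertoli-like cells and 0.452 in germ-like cells. Among classes of at least 100 cells the multiplexins were thus highest in different classes. Over all named classes the highest values were those of the 17 endothelial-like cells, at 134 CPM for Col15a1 and 593 CPM for Col18a1. The latter rested on 115 UMIs, 70.4% of them in 5 cells. In Col18a1, endothelial-like and Sertoli-like cells could not be told apart.

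The transmembrane collagens Col13a1, Col23a1 and Col25a1 are anchored in the cell membrane by their N-terminal end. Col13a1, which is known from cell adhesions and the neuromuscular junction, was at 101 CPM in interstitial-like, 32.5 in Leydig-like, 29.6 in peritubular myoid-like, 13.6 in perivascular-like, 7.79 in germ-like, 4.59 in coelomic epithelium-like and 1.25 in Sertoli-like cells. Col23a1 was at 63.4 CPM in interstitial-like, 32.6 in Leydig-like, 6.97 in peritubular myoid-like, 6.80 in perivascular-like, 1.41 in coelomic epithelium-like, 1.09 in Sertoli-like cells and 0.791 in germ-like cells. Col25a1, known from the innervation of muscle, was at 70.9 CPM in interstitial-like, 22.7 in peritubular myoid-like, 12.1 in Leydig-like, 6.80 in perivascular-like, 4.59 in coelomic epithelium-like, 4.29 in germ-like and 0.390 in Sertoli-like cells. All 3 were highest in interstitial-like cells.

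The 10 members between 5 and 50 CPM were Col4a3, Col4a5, Col4a6, Col6a6, Col7a1, Col8a2, Col9a1, Col11a1, Col12a1 and Col22a1. Of those not described above, Col6a6 was highest in coelomic epithelium-like cells, at 8.82 CPM, and Col7a1, the collagen of anchoring fibrils, in interstitial-like cells, at 6.52 CPM. The 12 members under 5 CPM in every class of at least 100 cells were Col2a1, Col5a3, Col6a4, Col6a5, Col8a1, Col10a1, Col11a2, Col17a1, Col19a1, Col20a1, Col24a1 and Col28a1, with 377 UMIs together in the kept cells. Col10a1 and Col19a1 had 2 UMIs each.

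Peritubular myoid-like and Sertoli-like cells face each other across the basement membrane of the cord, and 23 of the 44 members reached 5 CPM over both. Of these, 16 were higher and 3 were lower in peritubular myoid-like cells, whereas among all 10165 genes that reached that level 11.8% were higher and 17.0% lower. The median log2 ratio was 4.43 over the 23 members and -0.10 over all these genes. Col1a1 was 194-fold (162 to 235), Col1a2 129-fold (107 to 156), Col6a3 107-fold (68.1 to 178) and Col3a1 105-fold (90.2 to 123) higher in peritubular myoid-like cells. The 3 lower members were Col9a3, 141-fold (102 to 200), Col18a1, 14.2-fold (12.5 to 16.1), and Col9a2, 3.21-fold (2.81 to 3.69). Col4a1, Col4a2, Col14a1 and Col27a1 were within 2-fold of each other in these classes.

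Peritubular myoid-like cells were next set against interstitial-like cells, the other main stromal class. Of 27 members at 5 CPM or more, 6 were higher and 6 lower in peritubular myoid-like cells, against 2.83% and 4.2% of 9930 genes. The higher ones were Col1a1, Col4a4, Col8a2, Col9a2, Col14a1 and Col27a1, and all lay between 2.34-fold and 3.08-fold. Col1a1 was 2.55-fold higher (2.48 to 2.62). With log-normalization in place of SCTransform 3 of 27 members were higher, against 2.57% of all genes, and at a 4-fold limit none. The lower ones were Col4a1 (7.86-fold, 7.37 to 8.39), Col4a2 (6.40-fold, 5.87 to 6.99), Col15a1 (6.15-fold, 4.95 to 7.72), Col23a1 (9.10-fold, 6.82 to 12.4), Col13a1 (3.43-fold, 2.96 to 3.99) and Col25a1 (3.12-fold, 2.64 to 3.71). The main type I, III and VI chains other than Col1a1 were within 2-fold.

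In Sertoli-like against interstitial-like cells, 5 of 25 members were higher and 19 lower, against 14.8% and 13.53% of 10244 genes. The higher ones were Col9a3, 189-fold (144 to 252), Col18a1, 19.1-fold (17.2 to 21.3), Col9a2, 7.69-fold (6.63 to 8.96), Col27a1, 4.62-fold (4.08 to 5.24), and Col14a1, 2.89-fold (2.57 to 3.26). Those lower included Col1a2, 132-fold (110 to 159), Col3a1, 102-fold (87.4 to 119), and Col4a1, 9.10-fold (8.64 to 9.60). The median log2 ratio was -4.41 over the 25 members and 0.04 over all these genes.

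In Leydig-like against interstitial-like cells, 1 of 25 members was higher and 21 were lower, against 9.06% and 17.3% of 10014 genes. Col18a1 was 3.49-fold higher (3.05 to 3.98). The members furthest below interstitial-like cells were Col6a3, 21.8-fold (14.7 to 33.8), Col16a1, 17.6-fold (10.4 to 32.4), Col1a1, 15.2-fold (13.46 to 17.2), and Col15a1, 14.7-fold (10.3 to 21.7). In the Leydig-like class, 5 cells held 64.0% of the 25 Col6a3 UMIs and 5 cells held 38.1% of the 265 Col1a1 UMIs. Col6a1, Col4a5 and Col23a1 were within 2-fold. At a 4-fold limit, to which the shares above do not apply, 13 members were lower and none higher.

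Coelomic epithelium-like cells, which cover the testis, were set against interstitial-like cells for 27 members, of which 3 were higher and 12 lower, against 5.54% and 7.28% of 10029 genes. Col18a1 was 8.88-fold (7.82 to 10.1), Col27a1 3.24-fold (2.71 to 3.87) and Col8a2 2.63-fold (1.65 to 4.12) higher. Col4a1 was 11.9-fold (10.6 to 13.54) and Col4a2 9.52-fold (8.10 to 11.3) lower, as were the transmembrane collagens, with Col13a1 at 22.1-fold (12.9 to 41.6). Col1a1, Col1a2 and Col3a1 were within 2-fold.

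In perivascular-like against interstitial-like cells, 3 of 26 members were higher and 5 lower, against 2.91% and 3.65% of 9911 genes. Col12a1 was 4.50-fold (2.87 to 6.90), Col6a3 2.75-fold (2.42 to 3.12) and Col11a1 2.50-fold (1.97 to 3.15) higher. Lower were Col6a1, at 2.26-fold (1.96 to 2.63), the 3 transmembrane collagens, at 7.46-fold to 10.4-fold, and Col4a4, of which perivascular-like cells had 1 UMI. Col4a1 and Col4a2 were 1.60-fold (1.52 to 1.67) and 1.45-fold (1.35 to 1.56) higher, short of the 2-fold limit. Without the filter on outlier cells 5 of 26 members were higher and 8 lower, against 4.03% and 4.52% of all genes. With each cell classed by its own markers 2 of 27 were higher and 2 lower, against 2.24% and 1.35% of all genes. In that setting Col6a1 moved to 244 CPM and Col6a3 to 164 CPM in perivascular-like cells.

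**Figure D3:**
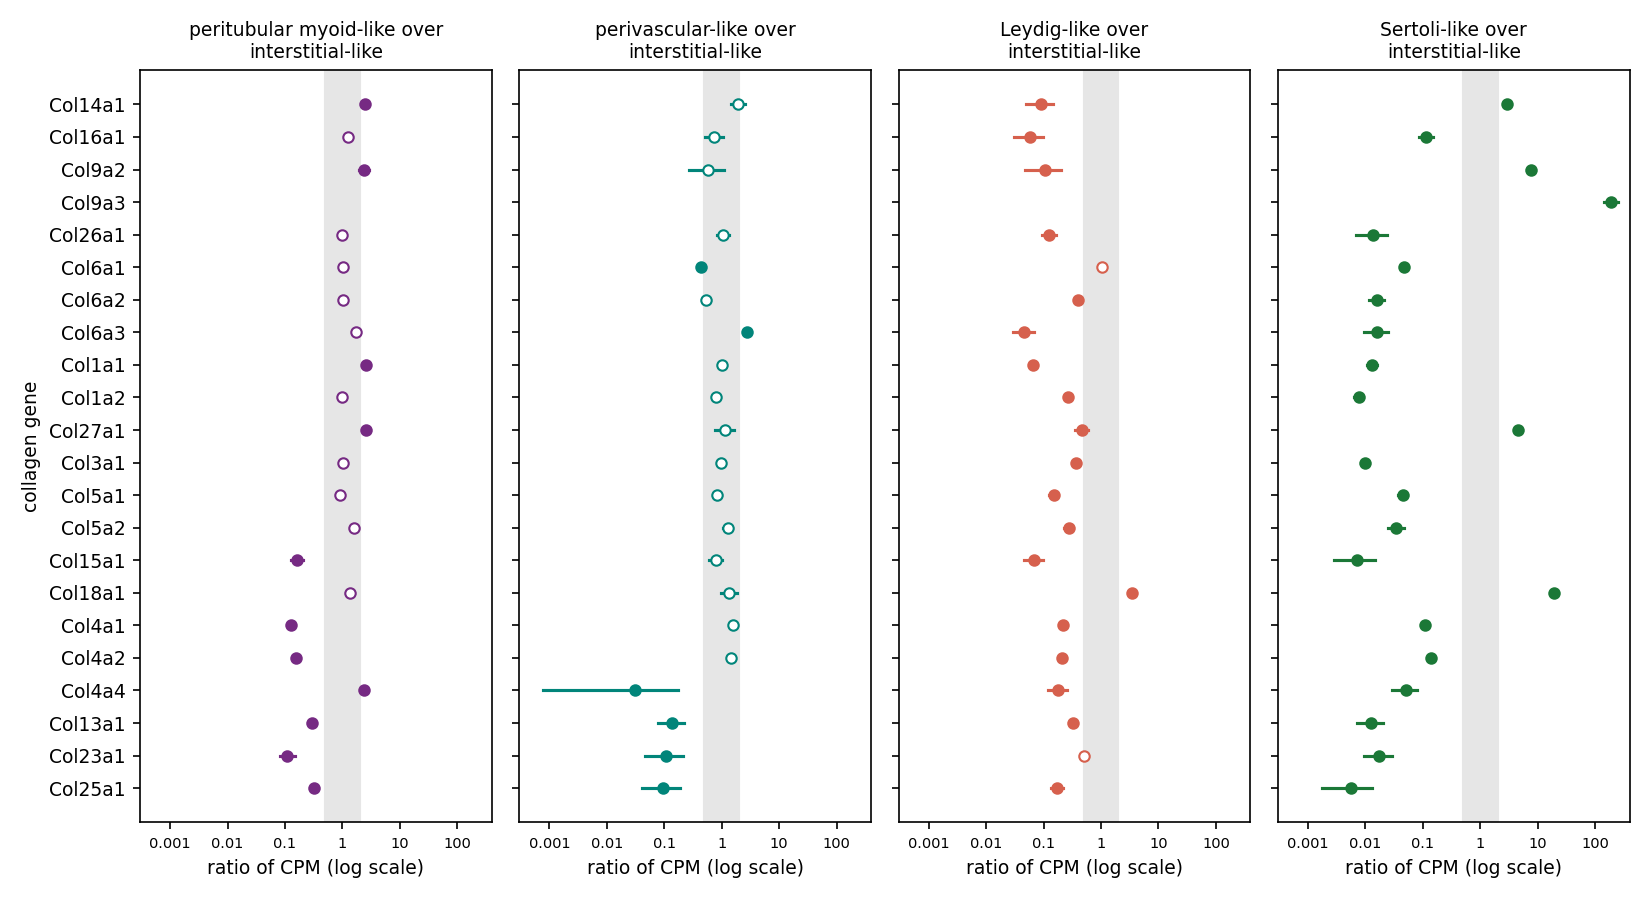
Ratio of levels of 22 collagens in 4 classes to those in interstitial-like cells (log axis), with exact 95% counting intervals. Filled points passed the 2-fold limit with intervals apart, open points did not, the grey band marks less than 2-fold, and genes under 5 CPM over both classes are left out. The perivascular-like point of Col4a4 rests on 1 UMI. In Leydig-like cells all drawn genes but Col18a1, Col6a1 and Col23a1 lie to the left of the band.

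In Sertoli-like against germ-like cells, the cells inside the cords, 12 members reached 5 CPM over both, and 8 were higher and 0 lower in Sertoli-like cells, against 30.8% and 16.6% of 10003 genes. Col9a3 was 88.7-fold (70.5 to 113), Col14a1 52.8-fold (31.3 to 97.0), Col27a1 34.2-fold (23.5 to 51.6) and Col4a1 10.7-fold (8.73 to 13.2) higher. Col1a1, Col1a2, Col3a1 and Col5a1 were between 8.26 and 13.2 CPM in both classes and within 2-fold. With each cell classed by its own markers 2 of 12 members were lower in Sertoli-like cells, against 16.6% of all genes. Without the minimum level, where more members were compared and these shares do not apply, 5 were lower. Without removal of doublets 14 of 17 were higher, against 30.3% of all genes.

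The low stromal collagen levels of the cord classes, germ-like and Sertoli-like, were set beside measures of free RNA. The 372 barcodes with fewer than 200 genes, in which hemoglobin made up 46.8% of the UMIs, held 4.84 Col3a1 UMIs, 2.96 Col1a1 UMIs and 1.34 Col4a1 UMIs per 100 barcodes. Sertoli-like cells held 19.9, 13.6 and 181 UMIs per 100 cells, and germ-like cells 41.3, 42.5 and 39.7. These counts are not scaled for depth, which differed. The 372 barcodes held 1409901 UMIs of all genes, the 854 Sertoli-like cells 12832529 and the 252 germ-like cells 8852613. In germ-like cells, the 5 highest of 252 cells held 61.0% of the Col4a1, 49.5% of the Col1a2, 43.0% of the Col1a1, 42.2% of the Col6a1 and 40.4% of the Col3a1 UMIs. They held 36.8% for Col25a1, 35.1% for Col9a3, 27.5% for Col6a3, 17.4% for Col13a1, 17.2% for Col22a1, 17.1% for Col5a1 and 16.0% for Col18a1. The spread over cells thus differed among stromal collagens too. In the 34 germ-like cells called G1, Col1a1 was at 39.6 CPM and Col4a1 at 52.4 CPM, against 8.54 and 5.99 CPM in the 218 others, whereas Col18a1 was at 27.7 and 28.3 CPM. The lowest summed marker level of another class was 1.91% of its library level in Sertoli-like cells and 1.08% in germ-like cells, and Col1a1 was at 2.11% and 2.82%. The 36 erythroid-like cells, with Col1a1 at 55.2% of the library level, also held 634 CPM of interstitial markers. The part of free RNA and of remaining doublets in these low levels was not tested.

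The ratio of UMIs of 2 chains of the same collagen type was compared between the classes. A ratio of UMIs is a ratio of captured molecules and does not give the ratio of proteins. Col4a1 and Col4a2, the overlapping pair, kept a narrow range, from 1.72 Col4a1 UMIs per Col4a2 UMI in Sertoli-like cells to 2.40 in perivascular-like cells, although their levels ranged over more than 100-fold. Col1a1 and Col1a2, on different chromosomes, ranged from 0.139 in Leydig-like cells through 0.564 in interstitial-like, 0.696 in perivascular-like and 1.08 in coelomic epithelium-like cells to 1.47 in peritubular myoid-like cells. The Leydig-like value joins 2 clusters with Col1a1 and Col1a2 at 68.5 and 665 CPM in the one and 27.7 and 65.9 CPM in the other, and without removal of doublets the Col1a2 level of the class was 182 CPM. Col6a1 per Col6a3 ranged from 0.628 in perivascular-like cells through 2.32 in peritubular myoid-like and 3.91 in interstitial-like cells to 87.0 in Leydig-like cells. Col6a1 per Col6a2, neighbours on chromosome 10, ranged from 1.21 in perivascular-like to 4.38 in Sertoli-like cells, the latter on 50 Col6a2 UMIs. This ratio was 1.46 in peritubular myoid-like and 3.78 in Leydig-like cells. A narrow range was thus not shared by all neighbours, and a part of gene arrangement was not tested. Col9a3 per Col9a2 was 6.54 in Sertoli-like cells, 0.266 in interstitial-like and 0.149 in peritubular myoid-like cells.

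Ratios were also computed for 3 other pairs of neighbours. Col4a3 per Col4a4 was 0.119 in peritubular myoid-like and 0.074 in interstitial-like cells, with overlapping intervals, so Col4a3 had far fewer UMIs than the gene at the other end of the 71 bases shown above. Col4a5 per Col4a6 was 4.04 in peritubular myoid-like, 3.84 in interstitial-like and 13.4 in Leydig-like cells. The Leydig-like ratio rests on 8 Col4a6 UMIs, and Col4a5 held 93.0% (86.8 to 96.9) of the UMIs of the pair there. This ratio was 7.60 in coelomic epithelium-like cells, and 48.5 in Sertoli-like cells on 2 Col4a6 UMIs. Col3a1 per Col5a2 was 6.92 in coelomic epithelium-like, 9.20 in peritubular myoid-like, 14.2 in interstitial-like and 19.3 in Leydig-like cells.

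**Figure D4:**
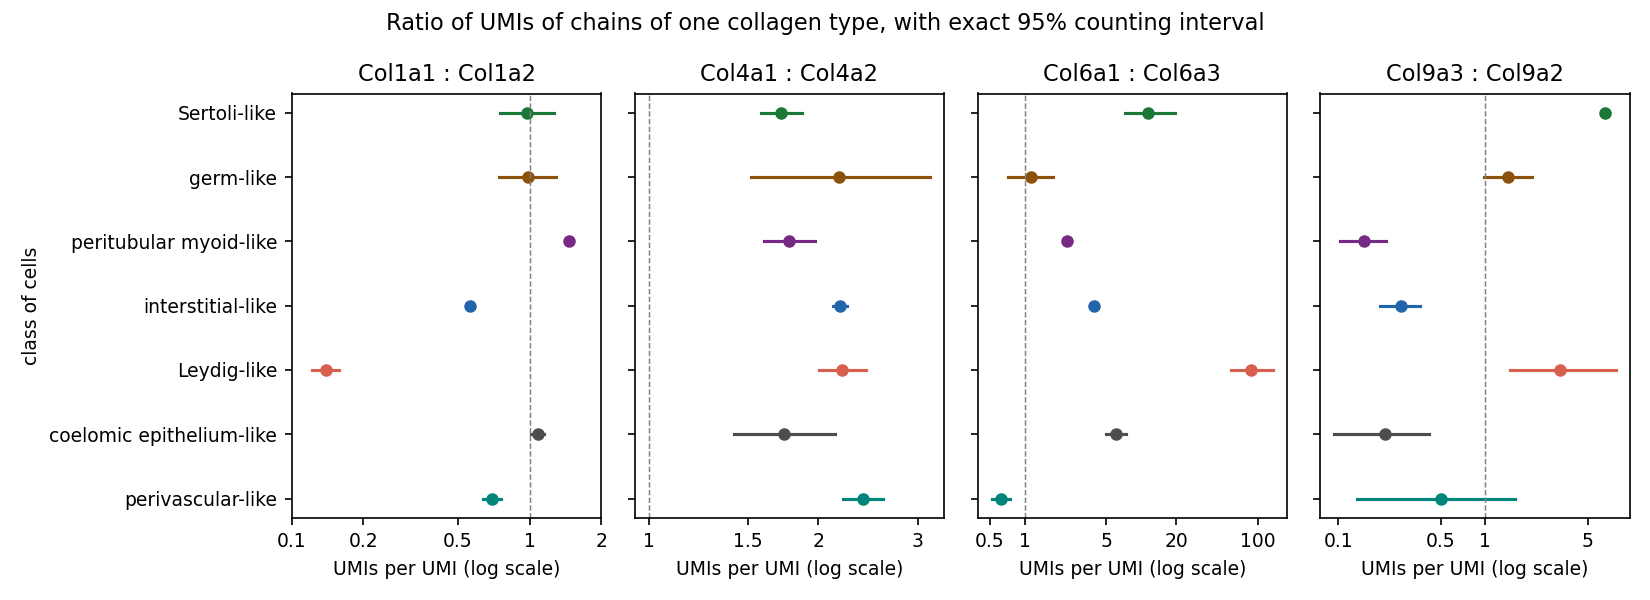
UMIs of the first chain per UMI of the second (log axis, a different range in each panel) for 4 pairs of chains in 7 classes, with exact 95% counting intervals and a dashed line at 1. The Col4a1 : Col4a2 ratio stays between 1.72 and 2.40, and the Col6a1 : Col6a3 ratio runs from 0.628 in perivascular-like to 87.0 in Leydig-like cells. The Leydig-like value of Col6a1 : Col6a3 rests on 25 Col6a3 UMIs.

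Interstitial-like cells fell into 3 clusters that differed in their collagens. Cluster 1 (853 cells) had Col4a1 at 1306 CPM and Col4a2 at 601 CPM, cluster 5 (209 cells, led by histone genes of dividing cells) 1033 and 455 CPM, and cluster 3 (294 cells) 488 and 237 CPM. Conversely, Col1a1 was at 1007 CPM in cluster 3, 637 in cluster 1 and 560 in cluster 5, and Col4a4 at 57.8, 17.0 and 33.9 CPM in the same order. Col9a2 was at 36.4 CPM in cluster 3 and 8.17 CPM in cluster 1. In Col1a1, Col4a1, Col4a2 and Col4a4 the level of cluster 3 lay between those of cluster 1 and of the peritubular myoid-like class. Col3a1 stayed between 1236 and 1415 CPM in all 3 clusters, and Col6a1 between 355 and 390 CPM.

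The Leydig-like class joined 2 clusters. Cluster 8 (132 cells) was led by steroidogenic genes such as Cyp11a1, Cyp17a1 and Star, and cluster 6 (181 cells) by Nppc and Vsnl1. Col1a2 was at 665 CPM in cluster 6 and 65.9 in cluster 8, and Col3a1 at 781 and 284 CPM. Col5a1 was at 52.7 and 8.73 CPM, Col13a1 at 63.7 and 8.73 CPM, and Col23a1 at 70.5 and 3.91 CPM. In all 5 cluster 6 was higher. Col18a1 had the opposite order, at 33.6 CPM in cluster 6 and 144 in cluster 8, so that with cluster 6 alone no member was higher than in interstitial-like cells. Col6a3 was low in both, at 3.96 and 4.51 CPM, and Col1a1 at 68.5 and 27.7 CPM. Class levels thus depended on the mix of clusters, as the Col1a2 level of the Leydig-like class did on the removal of doublets.

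**Figure D5:**
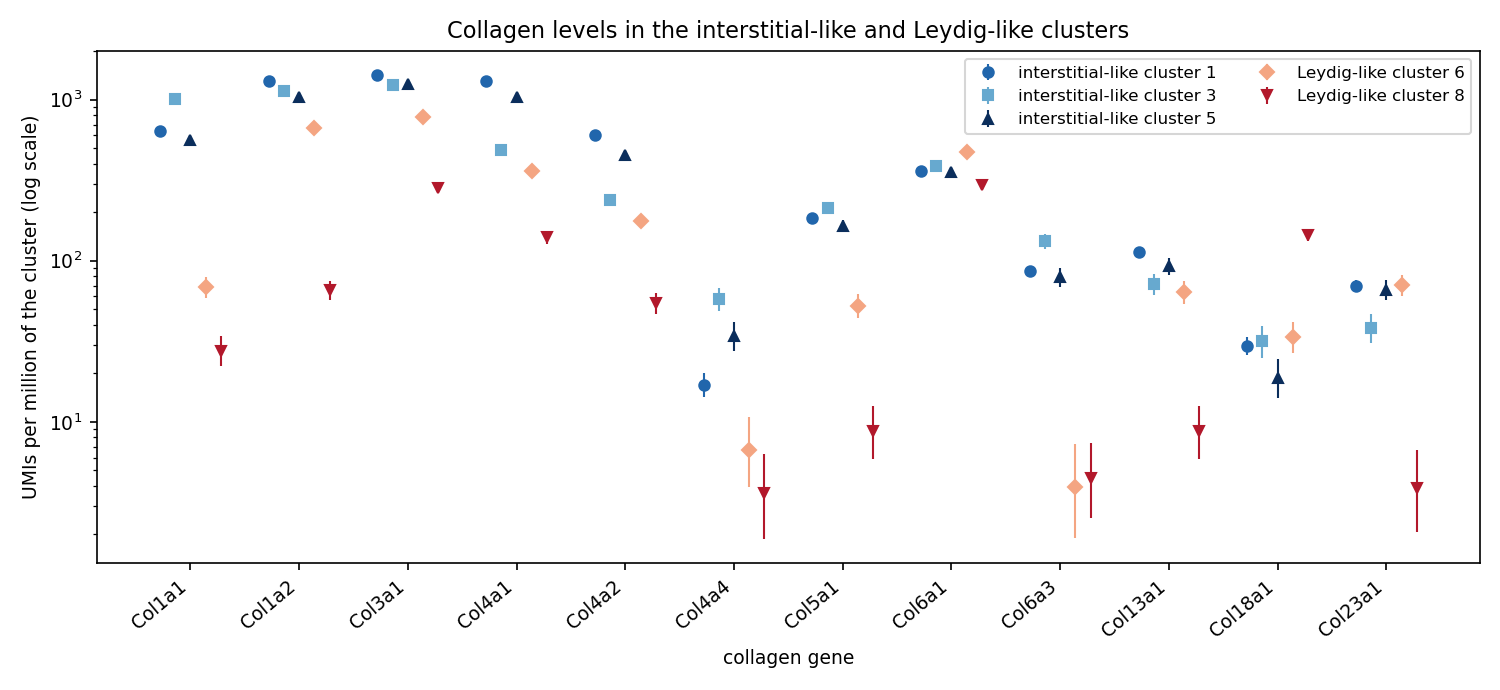
Levels of 12 collagens (log axis, CPM of a cluster, with exact 95% counting intervals) in the 3 interstitial-like clusters (blue) and the 2 Leydig-like clusters (red tones). Interstitial-like cluster 3 is lowest in Col4a1 (488 CPM) and highest in Col1a1 (1007 CPM) among the blue points, and Leydig-like cluster 8 is highest in Col18a1 (144 CPM).

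Genes that make, trim, bind or cut collagens were counted in 6 lists. Of 17 genes for modification and folding of the chains, 16 reached 5 CPM over Sertoli-like and interstitial-like cells, and 2 were higher and 6 lower in the former, against 14.8% and 13.53% of all genes. The member with the highest level was Ppib, a folding enzyme of the endoplasmic reticulum, at 802 CPM in Sertoli-like, 915 in interstitial-like and 649 in germ-like cells. Serpinh1, the collagen chaperone HSP47, was at 963 CPM in perivascular-like, 899 in interstitial-like, 883 in peritubular myoid-like, 697 in coelomic epithelium-like, 525 in Leydig-like, 346 in Sertoli-like cells and 71.1 in germ-like cells. The 7 classes had the same order in Serpinh1 as in total collagen. However, the Serpinh1 intervals of perivascular-like and interstitial-like cells overlapped, as did those of interstitial-like and peritubular myoid-like cells. In peritubular myoid-like and in perivascular-like against interstitial-like cells, 0 of 16 genes of this list passed the 2-fold limit, where 2.83% to 4.2% of all genes passed in each direction.

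Of 14 genes for trimming and crosslinking of procollagen, 5 of 8 that reached the minimum were lower and 1 was higher in Leydig-like than in interstitial-like cells, against 17.3% and 9.06% of all genes. The higher one was Pcolce, an enhancer of procollagen trimming, at 522 CPM in Leydig-like against 214 in interstitial-like cells. Adamts2, which removes the N-terminal propeptide, was at 117 CPM in peritubular myoid-like, 91.0 in interstitial-like and 13.1 in Sertoli-like cells. Among the proteoglycans and glycoproteins that bind fibrils, 7 of 9 were lower and 1 higher in Leydig-like than in interstitial-like cells, against 17.3% and 9.06% of all genes. In Sertoli-like cells 6 of 8 were lower and 1 higher, against 13.53% and 14.8%. Sparc, a collagen-binding glycoprotein, was at 2504 CPM in Sertoli-like, 1958 in Leydig-like and 1086 in interstitial-like cells, against 31.2 in germ-like cells. Decorin (Dcn), which coats type I fibrils, was at 921 CPM in peritubular myoid-like, 878 in interstitial-like, 249 in perivascular-like and 5.77 CPM in Sertoli-like cells.

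Of 11 partners of collagens in the basement membrane, 5 of 10 were lower and 2 higher in Sertoli-like than in interstitial-like cells, against 13.53% and 14.8% of all genes. The laminin chain gene Lamb1 was at 210 CPM in perivascular-like, 208 in interstitial-like, 126 in peritubular myoid-like and 80.7 CPM in Sertoli-like cells. Nidogen 1 (Nid1), which links laminin to type IV collagen, was at 207, 129, 97.1 and 49.95 CPM in these classes. Among 10 collagen receptors, the integrin chain genes Itgb1 and Itga1 were at 314 and 245 CPM in perivascular-like cells. In the other 6 classes Itga1 was at 18.3 CPM at most. Among 12 genes for proteases that cut collagens and their inhibitors, 7 of 7 were higher in Sertoli-like than in germ-like cells, against 30.8% of all genes. Compared with interstitial-like cells, 2 of 9 were higher and 5 lower in Sertoli-like cells, against 14.8% and 13.53% of all genes. The inhibitor Timp1 was at 415 CPM in Leydig-like against 69.8 CPM in interstitial-like cells, and the gelatinase Mmp2 at 260 CPM in coelomic epithelium-like, 258 in peritubular myoid-like and 9.74 in Leydig-like cells.

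Receptors chosen after their values were seen were Adgrg1 and Ddr1. Adgrg1, a receptor for type III collagen, was at 218 CPM in Sertoli-like cells and at most 12.0 CPM in the other 6 classes. Ddr1, a receptor kinase for fibrillar and type IV collagens, was at 137 CPM in Sertoli-like and 65.6 in coelomic epithelium-like cells. Of the 10 listed receptors, 5 reached the minimum over Sertoli-like and interstitial-like cells. Of these, 2 were higher and 2 lower in Sertoli-like cells, against 14.8% and 13.53% of all genes.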

How the data were processed

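Single-cell RNA of control testes at embryonic day 14.5 was measured in 1 library. The authors deposited raw UMI counts for each gene and barcode, obtained with Cell Ranger on mm10 joined to a reporter sequence. The submitters' processing notes name Cell Ranger 3.0.2 and 3.1.0, and the methods another version. Features and barcodes were plain lists.

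Barcodes with fewer than 200 genes (372), likely doublets by nearest artificial neighbours (204) and cells beyond 3 median absolute deviations (1023) were removed. Cells were clustered with Seurat 5.3.0 (sctransform 0.4.2, R 4.3.3) on 3000 variable genes and 30 components at resolution 0.8. Scores of the cell cycle and the share of mitochondrial UMIs were regressed out. The 28 collagens that would have been variable genes were left out. A cluster was named where the markers of 1 class had a mean log2 ratio of at least 1 and at least 3 markers were in 25% of cells. A further rule left a cluster unnamed where its median UMIs were far below that of all kept cells (12117) and none of these markers was among its 10 leading genes. It applied to cluster 11, with a median of 3148 UMIs. That cluster had a mean log2 ratio of 1.278 for Sertoli markers, with 9 of 11 in 25% of cells. Cells of a cluster with both perivascular and endothelial markers were divided by their own marker levels, a rule chosen after the clusters were seen. Levels, intervals and ratios were computed with Python 3.11.15, NumPy 2.4.6, SciPy 1.17.1 and pandas 2.3.3, with a floor of 3 UMIs in a ratio.

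The members, gene lists and call rule were chosen with earlier results of these data known. Members with at least 50 CPM in a class of at least 100 cells were described in full, those from 5 to 50 CPM by their highest class, and the rest by name. In each list of other genes, the 2 of highest level were named. Outside this rule, the receptors Adgrg1 and Ddr1 were named after their values were seen. Shares of cells were also given after thinning to 5000 UMIs. On simulated counts for the perivascular-like comparison (9897 genes), 96 of 100 genes changed 4-fold and 91 of 100 changed 3-fold were recovered, and 25 of 9711 unchanged genes were called. For the other 6 comparisons 98 to 100 of 100 genes changed 4-fold were recovered. These counts were drawn with counting error only, the error that the call rule assumes. Neither differences between cells of a class nor the clustering were simulated. With a single library and no replicates, classes were compared without a test.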

Additional observations from a re-analysis of the deposited data

Results flagged for a closer look

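Cells outside the comparisons of the report held collagen UMIs far above the limit that a count of 0 allows. In the 89 cells of unnamed cluster 10, which had Gdf10 and Foxp2 among its 10 leading genes and scored highest for the interstitial markers without passing the limit for a name, Col3a1 was at 3052 CPM and Col1a1 at 2108 CPM, above each of the named classes, and total collagen was at 9994 CPM. Col8a1 was at 63.5 CPM and Col6a6 at 32.4 CPM there, against at most 7.33 CPM and 8.82 CPM in the named classes. In the 17 endothelial-like cells Col15a1 was at 134 CPM and Col18a1 at 593 CPM. However, 5 cells held 70.4% of their Col18a1 UMIs, and 98.1% of their Col1a1 UMIs were in 5 cells. In the 29 rete testis-like cells, which also held 2648 CPM of Sertoli markers, Col4a5 was at 103 CPM and Col18a1 at 403 CPM. In the 62 cells of unnamed cluster 11, with a median of 3148 UMIs and 8063 CPM of Sertoli markers, Col9a3 was at 477 CPM. None of these differences was tested.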

How the results depend on the processing

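Of 192 counts of collagens called higher or lower under 13 other settings and 4 more chosen after seeing the data, 175 stayed within 1.5 times the reported count. Without the outlier filter 5 of 26 members were higher and 8 lower in perivascular-like than in interstitial-like cells, against 4.03% and 4.52% of genes. Without removal of doublets 14 of 17 were higher in Sertoli-like than in germ-like cells, against 30.3% of all genes. With log-normalization 3 of 27 were higher in peritubular myoid-like than in interstitial-like cells, against 2.57% of all genes. With each cell classed by its own markers 2 of 27 were lower in perivascular-like than in interstitial-like cells, against 1.35% of all genes. In that setting 2 of 12 were lower in Sertoli-like than in germ-like cells, against 16.6% of all genes. Without the filter on low values 43 members rather than 23 were compared in peritubular myoid-like against Sertoli-like cells. Of these 26 were higher and 5 lower, against 12.9% and 14.4% of all genes. In the same setting 2 were higher in Leydig-like than in interstitial-like cells, and 5 lower in Sertoli-like than in germ-like cells. These counts are given without the shares of all genes. At 4-fold, against interstitial-like cells, 0 were higher in peritubular myoid-like, 1 was higher and 6 lower in coelomic epithelium-like, 1 higher in perivascular-like, and 0 higher and 13 lower in Leydig-like cells. The shares of all genes at 4-fold are not set beside these counts, which therefore give no comparison with other genes. With Leydig-like cluster 6 alone 0 were higher. A doubled doublet rate left no perivascular-like class. The causes were not tested. Of the 89 levels of at least 20 CPM, 6 moved by over 1.5 times with each cell classed by itself and 5 without removal of doublets. No paired analysis was possible because there was 1 library. With 1 library, no spread between animals could be measured.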
